A study of Mus musculus with 4 samples.

Results

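The Hox genes were followed across 4 two-colour Agilent arrays of cultured mouse microvascular smooth muscle cells. Members were the non-control probes whose accession mapped, through a RefSeq name table, to a mouse symbol beginning Hoxa, Hoxb, Hoxc or Hoxd and ending in a number. This gave 46 of 41174 probes, and 36 of the 18217 genes for which a probe had a symbol. The Hoxa cluster on chromosome 6 had 14 probes for 11 genes, the Hoxb cluster on chromosome 11 had 13 for 10, the Hoxc cluster on chromosome 15 had 7 for 6, and the Hoxd cluster on chromosome 2 had 12 for 9. The name table holds 39 Hox genes, and Hoxc4, Hoxc6 and Hoxc11 matched no probe and were not analysed here.

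Every array paired RNA from a culture given an empty shuttle vector, labelled Cy5, with RNA from a culture given a shuttle vector named RapCA, labelled Cy3. Cells in both channels were derived from Rap1a knockout males of the C57BL6 strain, so neither channel held RNA from mice with the gene intact. They were grown in 10% serum, exposed to virus overnight without serum at plating and left for 48 h in 0.5% serum. The 4 arrays are labelled biological replicates, and nothing states that they came from separate cultures or animals, so the p-values measure only the spread between these arrays. The title frames the comparison as knockout against rescue, and the name RapCA is not spelled out. The same dye always went with the same vector, so dye and vector cannot be told apart.

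Hox genes encode homeodomain transcription factors that give cells their position along the body axis. They lie in clusters named a to d, and genes with the same number in different clusters, called paralogues, descend from 1 ancestral gene. Low-numbered genes lie at the 3′ end of a cluster and act toward the head, and high-numbered genes lie at the 5′ end and act toward the tail and the tips of the limbs and genital tract. In adult fibroblasts and vascular smooth muscle, part of this pattern persists and differs with the region the cells came from. Hox proteins bind DNA together with TALE homeodomain partners such as the Pbx and Meis proteins, and their clusters are held silent by Polycomb proteins and kept active by Trithorax proteins.

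Of the 5′ paralogues, number 13 gave a signal from the Hoxa, Hoxb and Hoxc clusters and none from the Hoxd cluster, and the neighbours Hoxa9 and Hoxa10 differed between the channels in opposite directions. The 250 bases before the start of a gene in each pair are therefore shown, from RefSeq on build GRCm38.p6, written 5′ to 3′ along the gene with every CG in capitals. The Hoxa10 window is that of the start nearer to Hoxa9.
Hoxa13, chr6:52260881-52261130, minus strand: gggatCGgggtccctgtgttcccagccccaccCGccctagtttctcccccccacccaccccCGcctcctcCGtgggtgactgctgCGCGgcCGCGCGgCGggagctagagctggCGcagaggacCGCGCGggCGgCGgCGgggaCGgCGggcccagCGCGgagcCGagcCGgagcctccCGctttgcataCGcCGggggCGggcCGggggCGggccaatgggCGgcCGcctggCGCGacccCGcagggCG
Hoxd13, chr2:74667975-74668224, plus strand: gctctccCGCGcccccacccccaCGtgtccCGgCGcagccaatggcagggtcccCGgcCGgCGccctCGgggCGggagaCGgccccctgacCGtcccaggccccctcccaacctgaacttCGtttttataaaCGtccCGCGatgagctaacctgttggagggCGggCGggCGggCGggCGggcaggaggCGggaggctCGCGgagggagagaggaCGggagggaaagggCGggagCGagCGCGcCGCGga
Hoxa9, chr6:52227371-52227620, minus strand: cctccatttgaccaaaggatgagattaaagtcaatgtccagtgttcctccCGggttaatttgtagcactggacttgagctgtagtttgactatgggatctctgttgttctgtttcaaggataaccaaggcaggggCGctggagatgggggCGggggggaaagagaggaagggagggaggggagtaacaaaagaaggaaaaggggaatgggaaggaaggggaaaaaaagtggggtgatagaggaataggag
Hoxa10, chr6:52234940-52235189, minus strand: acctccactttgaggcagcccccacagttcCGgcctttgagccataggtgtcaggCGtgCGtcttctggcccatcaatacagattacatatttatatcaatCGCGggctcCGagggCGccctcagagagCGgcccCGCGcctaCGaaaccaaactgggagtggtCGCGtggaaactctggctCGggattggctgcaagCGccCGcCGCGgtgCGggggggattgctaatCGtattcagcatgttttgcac
The table of such windows held 24 for 22 of the Hox genes among 32851 in all. The Hoxa13 window held 35 CG dinucleotides at a GC content of 80%, and the Hoxd13 window held 31 at 74.4%. Both exceeded the median of all windows, which was 6 at 52.4% GC. The window of the undetected Hoxd13 was thus rich in CG, as was that of the detected Hoxa13. The Hoxa9 window held 3 CG at 49.6% GC, whereas the Hoxa10 window held 20 at 59.2% and that of the other Hoxa10 start held 7 at 51.6%. By cluster, counts ran from 3 to 35 over 10 Hoxa windows, from 7 to 14 over 3 Hoxb windows and from 2 to 31 over 10 Hoxd windows. Of 5 motifs searched on both strands, the TATA box letters TATAAA were found in 4 of 24 Hox windows and 12.4% of all windows. The CCAAT letters were found in 14 Hox windows and 33.8% of all, the Cdx-like letters TTTATG in 5 and 10.8%, and the letters TGATNNAT, as in Hox and Pbx composite sites, in 4 and 7.68%. The cAMP response letters TGACGTCA were found in 0 Hox windows and 1.55% of all. A match is a description of letters only, and motifs that overlapped were each counted.

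Before the results, 3 facts of the series bear on them. The Rap1a probe, which should check the labels, was lower in the channel labelled RapCA with a mean log2 ratio of -1.06 ± 0.44 over the 4 arrays (adjusted p = 0.00204 by limma). Where that probe lies relative to the deleted part of Rap1a is not known here, and all directions below follow the dye labels alone. Replicate 1 stood apart. On it 51.3% of probes were well above background in Cy5 against 60.1% to 61.9% on the other arrays, and across probes its ratios correlated with theirs at 0.69 to 0.78, while those of replicates 2 to 4 correlated at 0.93 to 0.98. Of the markers of the labelled cell type, 6 of 8 smooth muscle genes passed the scanner software's background flag in both dyes on every array, and Des and Myocd never did. Of 8 fibroblast markers 7 passed it likewise, so the markers do not set smooth muscle cells apart from fibroblasts. The number of arrays limits the precision of every value.

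The Hox pattern of these cells was one of near-complete Hoxa and Hoxb clusters and a largely undetected Hoxd cluster. A probe was counted as detected when the scanner software flagged it as well above background. By that flag 27 of 46 Hox probes (58.7%), covering 23 genes, were detected in both channels on all 4 arrays, against 49.5% of all probes. In no channel of any array were 16 Hox probes (34.8%), covering 11 genes, detected, against 32.5% of all probes. The shares lie near those of all probes, and the clusters differed in where their probes fell. In the Hoxa cluster 10 of 14 probes were detected throughout, and every one of its 11 genes was detected on at least 1 array. The other probes of Hoxa3 and Hoxa4 were detected nowhere, and the other probe of Hoxb8 on 1 array in 1 channel. In the Hoxb cluster 11 of 13 were, and Hoxb1, which marks a single segment of the embryonic hindbrain, was the 1 gene detected nowhere although its probe has 10 spots per array. In the Hoxc cluster 5 of 7 were, and Hoxc5 and Hoxc8 were detected nowhere.

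In the Hoxd cluster 1 of 12 probes was detected. Hoxd1, Hoxd3, Hoxd4 and Hoxd8, and the limb and genital genes Hoxd10, Hoxd11, Hoxd12 and Hoxd13, gave no detected spot in either channel of any array, and of the 2 probes for Hoxd9 only 1 did. The net signal of the 11 undetected Hoxd probes, which is the median brightness of the spot less that of its surround, lay between -17.5 and 18.5 over all channels and arrays with a median of 3. The 27 Hox probes detected throughout ranged from 20 to 14756 with a median of 409. Genes around the Hoxd cluster were measured on the same arrays. Atp5g3, Atf2, Evx2, Lnpk, Mtx2 and Hnrnpa3 each passed the flag in both dyes on every array. They were taken from the tested genes, which had to be detected on all 4 arrays in at least 1 channel. Their passing was thus largely fixed in advance and sets no edge to the undetected stretch. Evx2, a homeobox gene next to Hoxd13, was at a log2 ratio of -0.04 ± 0.25 (adjusted p = 0.815). Of the non-coding and Evx genes listed for all clusters 3 had a probe, and the others with one, Hoxd3os1 and Evx1, were detected nowhere. Bulk RNA cannot tell fewer cells that express a gene from less of its RNA per cell. With the stricter call of a spot at least 2-fold its local background, 22 Hox probes remained, 8 of Hoxa, 10 of Hoxb, 4 of Hoxc and 0 of Hoxd, so the Hoxd9 signal rested on the scanner software's flag. A probe not well above background may also bind its transcript poorly, which was not tested.

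**Figure D1:**
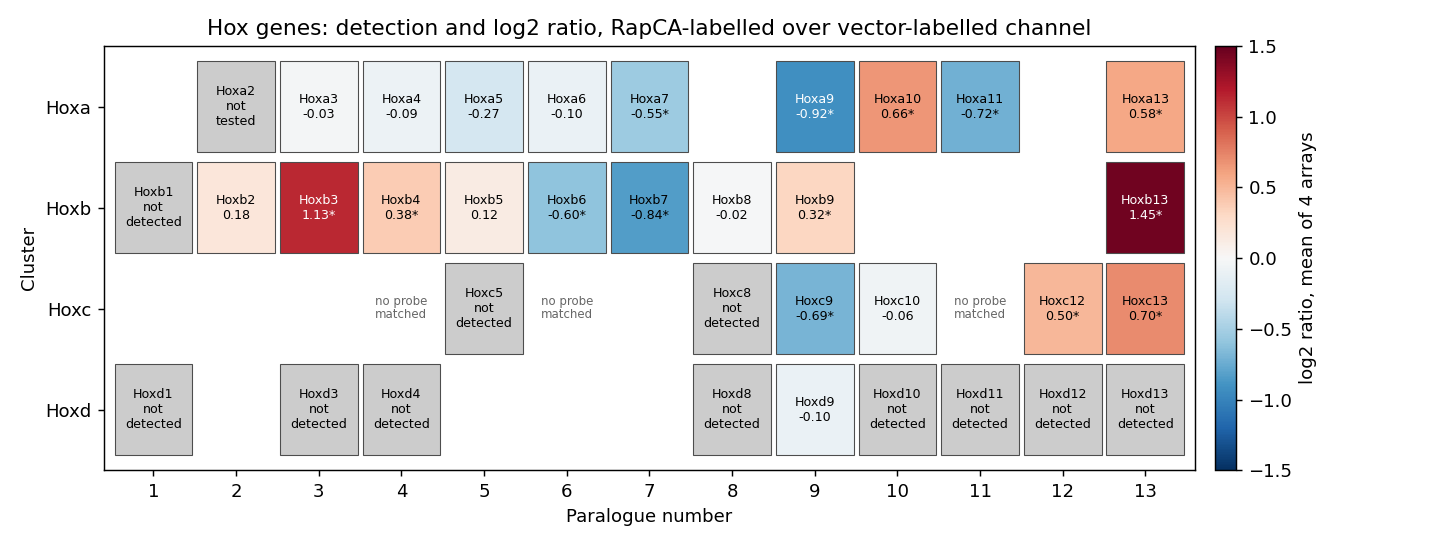
Grid of the Hox genes, with paralogue number across and cluster down. Each tile carries the mean log2 ratio of the RapCA-labelled over the vector-labelled channel for the brightest probe of the gene (n = 4 arrays, asterisk for an adjusted p under 0.05), and grey tiles mark genes not detected or not tested. The Hoxd row is grey but for Hoxd9, and the tiles of paralogue 13 in the other rows are 0.58, 1.45 and 0.70.

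Differences between the channels ran both ways. Tested were the 28 Hox probes, for 24 genes, that were detected on all 4 arrays in at least 1 channel, and 27 of them were detected in both. By limma, 10 were higher in the channel labelled RapCA, 8 were lower and 10 did not pass. The 64.3% called stands against 49.6% of all 23497 probes tested. Higher were 35.7% of Hox probes against 26.4% of all, and lower were 28.6% against 23.2%. At least 2-fold and called were 3 Hox probes (10.7%) against 13.2% of all, so large differences were no more frequent than over the array. By gene, 8 were higher, 7 lower and 9 not called, where 28.9% and 24.9% of the array's tested genes were. The median Hox log2 ratio was -0.02 and that of all probes 0.01. All 10 higher probes and all 8 lower probes had the same sign on each of the 4 arrays. A call made from these same arrays favours a shared sign, so this adds no support.

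The direction of the difference followed neither cluster nor number throughout. In the Hoxa cluster 3 of 11 tested probes were higher and 4 lower, in the Hoxb cluster 5 of 11 and 2, in the Hoxc cluster 2 of 5 and 2, and the 1 Hoxd probe did not pass. Paralogues 4 to 8 had 1 higher and 3 lower of 9 tested probes, and paralogues 9 to 13 had 8 and 4 of 14. Every tested probe of paralogue 13 was higher, 4 of 4, though with median centring the Hoxa13 probes did not pass (adjusted p of 0.117 and 0.0633), and both tested probes of paralogue 7 were lower. These groupings were read off after the values were seen and carry no test.

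**Figure D2:**
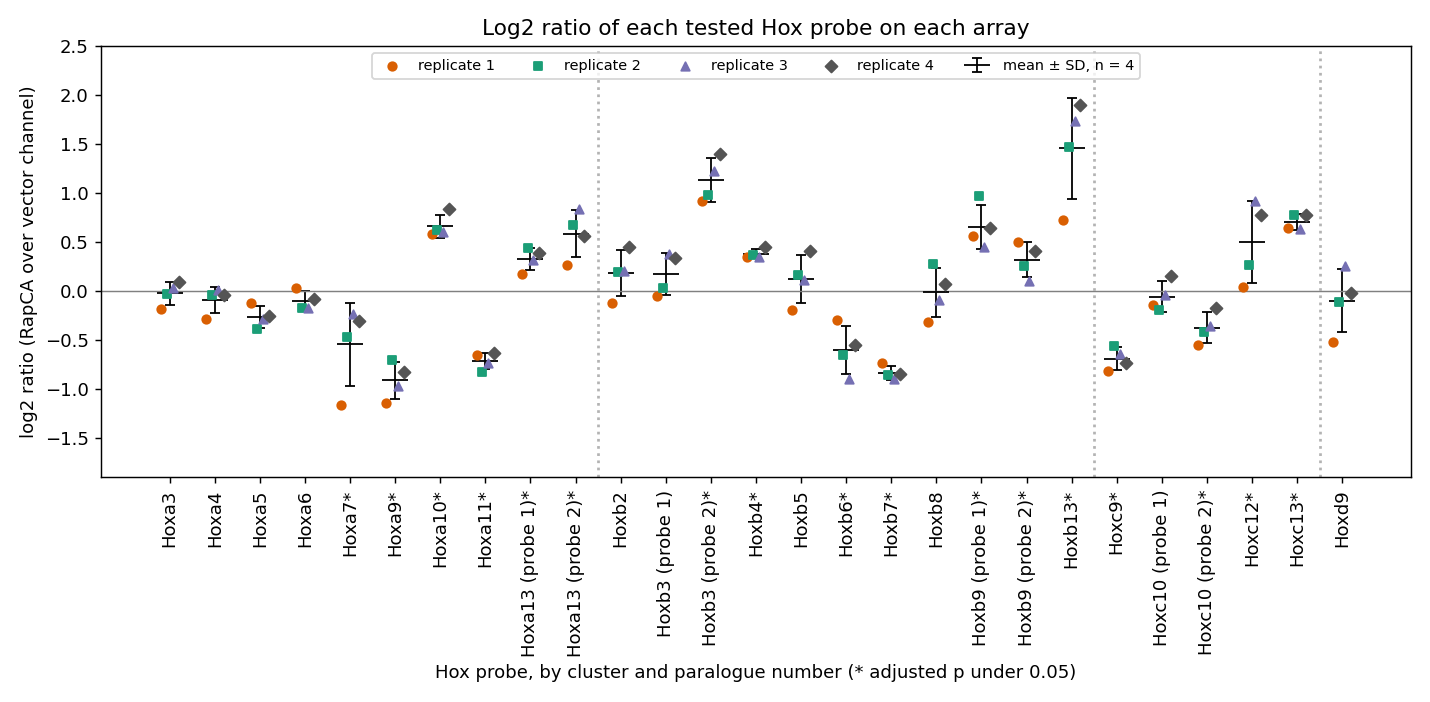
Log2 ratio of the RapCA-labelled over the vector-labelled channel for the tested Hox probes, ordered by cluster and paralogue number. Symbols are the 4 arrays, bars the mean ± SD (n = 4), and asterisks mark an adjusted p under 0.05. Hoxb13 on replicate 1, at 0.72, sits below 1.47 to 1.89 on the others, and Hoxa7 on replicate 1, at -1.16, sits below -0.47 to -0.24.

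Paralogue 13, the 5′ end of the clusters, held the Hox gene with the highest ratio. Hoxb13, which in the mouse limits growth of the tail end of the axis and acts in the prostate, gave net signals of 3645.5, 3019.5, 2622.5 and 3047 in the channel labelled RapCA on replicates 1 to 4. Such net signals hold no correction for dye, and over all probes their median was 35.5 to 43 in Cy3 and 37, 83.5, 81 and 75.5 in Cy5 on replicates 1 to 4. The channel labelled vector gave 1687.5, 1771.5, 1505.5 and 1304.5, so the channels did not overlap even before dye normalization. After it the log2 ratios were 0.72, 1.47, 1.73 and 1.89, with a mean of 1.45 ± 0.52 (adjusted p = 0.000861), a 2.74-fold difference. Replicate 1 was the lowest, and without it the mean was 1.70. Hoxc13, needed for hair and nails, had net signals of 146.5, 134.5, 91.5 and 116.5 against 47, 104, 92 and 84. The raw channels overlapped and on replicate 3 were level, and the normalized ratios were 0.64, 0.78, 0.63 and 0.77, with a mean of 0.70 ± 0.08 (adjusted p = 0.00100). The narrow spread of Hoxc13 came after dye normalization. Hoxa13, which shapes digits, the genital tract and the umbilical arteries, was read by 2 probes. They are numbered here, as in the plots, by their identifiers. Probe 1 gave 0.17, 0.43, 0.31 and 0.38 (mean 0.32 ± 0.12, adjusted p = 0.0304), and probe 2 gave 0.26, 0.68, 0.83 and 0.56 (mean 0.58 ± 0.24, adjusted p = 0.0063). After dye normalization both probes were higher on every array, with replicate 1 lowest. The raw net signals of probe 1 were 55.5, 56, 41 and 47 against 34.5, 56, 55 and 45, level on replicate 2 and lower on replicate 3. Those of probe 2 were 296, 295.5, 315 and 325 against 152, 280, 312 and 352, lower on replicate 4. Probe 1 lost its call without replicate 2, 3 or 4, at adjusted p of 0.184, 0.142 and 0.0902. Hoxc12, which lies beside Hoxc13, gave 0.04, 0.26, 0.92 and 0.77 (mean 0.50 ± 0.42, adjusted p = 0.0392). Its arrays spread widely, and it lost the call without replicate 2, 3 or 4, at adjusted p of 0.0695, 0.18 and 0.144. In all it lost the call under 8 of 15 alternatives, among them median centring (0.35, adjusted p = 0.13) and the scanner software's ratios (0.52, adjusted p = 0.0742).

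Along the Hoxa cluster from number 9 to 11 the sign alternated between neighbours. Hoxa9, a regulator of blood progenitors and of lumbar and sacral vertebrae, had net signals of 262, 273.5, 212 and 246 in the channel labelled RapCA and 438, 792.5, 918 and 808.5 in the channel labelled vector. Its ratios were -1.15, -0.71, -0.98 and -0.82, a mean of -0.92 ± 0.19 (adjusted p = 0.000603) or 1.89-fold lower. The raw channels did not overlap, though net signals hold no dye correction. Their median over all probes on replicates 2 to 4 was 83.5, 81 and 75.5 in Cy5 against 43, 35.5 and 40.5 in Cy3. Hoxa10, its neighbour, needed for development of the uterus, gave 0.58, 0.62, 0.60 and 0.84, a mean of 0.66 ± 0.12 (adjusted p = 0.0016) or 1.58-fold higher. Its raw net signals were 1241.5, 980, 811 and 980 against 549, 1020.5, 1018 and 883.5, so on replicates 2 and 3 the sign appeared only after dye normalization. With each array centred on its median, which leaves out the intensity trend, Hoxa10 was at 0.50 and did not pass (adjusted p = 0.122). Hoxa11, which builds the forearm and acts in the uterus, gave -0.66, -0.83, -0.74 and -0.64, a mean of -0.72 ± 0.09 (adjusted p = 0.000945). Its net signals were 4131, 3336, 3293 and 3322 against 5596, 10375, 11417 and 8722.5. The raw channels were apart on every array, and least on replicate 1. There the median over all probes was 37 in Cy5 against 43 in Cy3. After dye normalization the difference was smallest on replicate 4, at -0.64.

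Among the other genes of numbers 9 and 10 the clusters went different ways. Hoxc9, which patterns the thorax and motor neurons, had net signals of 896.5, 764, 687.5 and 730 against 1143.5, 1892, 2171 and 2082.5. Its ratios were -0.82, -0.56, -0.65 and -0.74, a mean of -0.69 ± 0.11 (adjusted p = 0.00125) or 1.62-fold lower. Hoxb9, a regulator of rib identity, was higher by both probes. Probe 1 gave 0.56, 0.97, 0.45 and 0.64 (mean 0.65 ± 0.22, adjusted p = 0.00337), and probe 2 gave 0.50, 0.26, 0.10 and 0.41 (mean 0.32 ± 0.18, adjusted p = 0.0456). Probe 2, the brighter one, turned to -0.06 with median centring (adjusted p = 0.854) and lost its call without replicate 2, 3 or 4 (adjusted p of 0.15, 0.0883 and 0.133). It kept the call under 6 of 15 alternatives. The raw net signal in the channel labelled RapCA was the lower one on replicates 2 to 4 for probe 2 and on replicates 3 and 4 for probe 1. Probe 1 stayed positive with median centring, at 0.48, and did not pass (adjusted p = 0.158). Hoxc10, a hindlimb and lumbar gene, was at -0.14, -0.20, -0.04 and 0.15 by probe 1 (mean -0.06 ± 0.15, adjusted p = 0.672) and at -0.55, -0.42, -0.36 and -0.17 by probe 2 (mean -0.38 ± 0.16, adjusted p = 0.0215). The probes of Hoxc10 thus disagreed on the call, and probe 2 lost it without replicate 2 or 3 (adjusted p of 0.119 and 0.105). The detected probe of Hoxd9 gave -0.53, -0.11, 0.25 and -0.03, a mean of -0.10 ± 0.32 (adjusted p = 0.57), with arrays on both sides of 0.

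In the middle of the clusters, Hoxb6 and Hoxb7 were lower together and Hoxb8 was not called. Hoxb7, which patterns the thoracic skeleton with its neighbours, had net signals of 2700, 2511, 2126 and 2423 in the channel labelled RapCA and 3633, 7880, 8142 and 7350 in the channel labelled vector. Its ratios of -0.74, -0.86, -0.90 and -0.85 lay close together, with a mean of -0.84 ± 0.07 (adjusted p = 0.000452). Hoxb6, its neighbour, gave -0.30, -0.65, -0.90 and -0.56, a mean of -0.60 ± 0.25 (adjusted p = 0.00573). On replicate 1 its net signals were 4191.5 and 4341, nearly level, and on the others 2629 to 3660.5 against 8197.5 to 10135. Median centring put Hoxb6 at -0.89, where it did not pass (adjusted p = 0.0612). Hoxb8 gave -0.32, 0.28, -0.10 and 0.07, a mean of -0.02 ± 0.25 (adjusted p = 0.922), with no common sign. Hoxa7, the paralogue of Hoxb7, gave -1.16, -0.47, -0.24 and -0.31, a mean of -0.55 ± 0.42 (adjusted p = 0.0291). Replicate 1 carried much of that mean, which was -0.34 without it (adjusted p = 0.00847). Without replicate 2 or 4 the call was lost (adjusted p of 0.0809 and 0.0517). Hoxa5, which acts in lung and neck development, was at -0.27 ± 0.11 (adjusted p = 0.0595) with all 4 arrays below 0, between -0.39 and -0.12. Without replicate 1 it passed at -0.31 (adjusted p = 0.00822), and with the scanner software's ratios at -0.51 (adjusted p = 0.0315). In all, Hoxa5 passed under 8 of 15 alternatives, and with median centring it did not (adjusted p = 0.125). Hoxa6 was at -0.10 ± 0.10 (adjusted p = 0.426), and its probe was detected on 3 arrays in the channel labelled vector and 4 in the other. With the scanner software's ratios it passed at -0.39 (adjusted p = 0.0471), and it also passed with the series table and with array weights. Hoxb5 was at 0.12 ± 0.25 (adjusted p = 0.444).

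At the 3′ end, Hoxb3 was higher by 1 of its 2 probes. Hoxb3, which acts in hindbrain and pharyngeal development, gave 0.92, 0.98, 1.23 and 1.40 by probe 2, a mean of 1.13 ± 0.22 (adjusted p = 0.000306) or 2.19-fold higher. The net signals were 418, 333.5, 343 and 419 against 119, 243.5, 241.5 and 224, apart before any dye normalization. Probe 1 of the same gene gave -0.05, 0.02, 0.38 and 0.34, a mean of 0.17 ± 0.22 (adjusted p = 0.256). The ratios of the Hoxb3 probes did not overlap over arrays, and which transcripts each reads is not known here. Hoxb4, a regulator of blood stem cells, gave 0.34, 0.37, 0.35 and 0.45, a mean of 0.38 ± 0.05 (adjusted p = 0.0132). Small as it was, that difference was even across arrays after dye normalization. The raw net signals of Hoxb4 were 161, 121.5, 104.5 and 100 against 75, 145.5, 150 and 105. On replicates 2 to 4 the sign thus appeared only after that normalization. Hoxb4 lost the call without replicate 2 or 3 (adjusted p of 0.0886 and 0.0839) and with median centring (0.29, adjusted p = 0.22). Hoxb2 was at 0.18 ± 0.23 (adjusted p = 0.25), with replicate 1 at -0.12 and the others between 0.19 and 0.45. Without replicate 1 it passed at 0.28 (adjusted p = 0.0224). Hoxa3, which forms the thymus and parathyroid, was at -0.03 ± 0.12 (adjusted p = 0.846), and Hoxa4 at -0.09 ± 0.13 (adjusted p = 0.482). Hoxa2 was detected on 1 array in each channel and was not tested.

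Of the 18 called Hox probes, 8 kept their call and direction under all 15 other ways of processing. They included Hoxb13, probe 2 of Hoxb3 and Hoxc13 on the higher side, and Hoxa9, Hoxa11, Hoxb7 and Hoxc9 on the lower side. Median centring cost 9 probes their call and left 3 higher and 6 lower. It also moved the median of all probes by -0.16, and with it 40.1% of all called probes were higher against 53.3%. With it Hoxb13 was at 1.24. The scanner software's ratios were larger for Hoxc13, at 1.28, probe 1 of Hoxa13, at 0.90, and Hoxb4, at 0.64, and for the uncalled Hoxd9, at -0.43. Without replicate 1, the array that stood apart, 11 Hox probes were higher and 9 lower, and without replicate 2, 3 or 4 they were 6, 6 and 7 higher and 6, 7 and 7 lower.

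**Figure D3:**
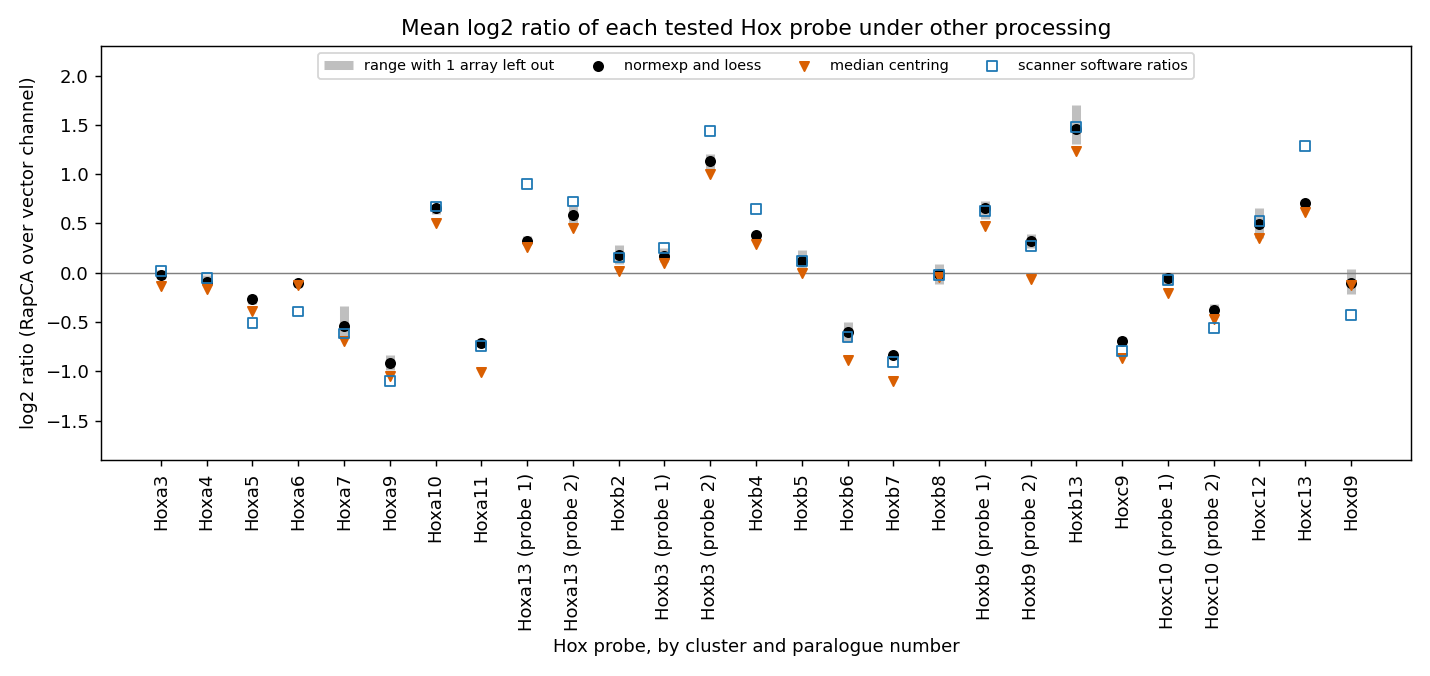
Mean log2 ratio of each tested Hox probe (RapCA-labelled over vector-labelled channel) under the loess normalization reported, median centring and the scanner software's ratios, with grey bars for the range when 1 array is left out. Probe 2 of Hoxb9 crosses 0, from 0.32 to -0.06 with median centring, while Hoxa9 and Hoxb13 keep their sides at -0.92 and 1.45.

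Of the listed TALE homeodomain genes, the family that holds the DNA-binding partners of Hox proteins, more were higher than lower. Not every listed member is such a partner. All 11 had a tested probe, of which 6 were higher, 1 lower and 4 not called, beside 28.9% higher and 24.9% lower of all genes tested. The median was 0.36 against 0.01 for all probes tested. Pknox2 was at 1.26 ± 0.30 (adjusted p = 0.000349), and Pbx2 at 0.66 ± 0.30 (adjusted p = 0.00606). The 1 lower member was Pbx3, at -1.10 ± 0.33 (adjusted p = 0.000772). Median centring cost Pbx2 its call (adjusted p = 0.0596). The Pbx paralogues thus had calls in both directions, as the Hox genes themselves did.

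Polycomb genes, whose complexes keep silent Hox genes shut, had calls in both directions. Of 29 tested, 7 were higher, near the 28.9% of all genes tested, and 12 were lower, where 24.9% of all were, with a median of -0.20. Cbx2, the subunit that reads trimethylated H3K27 and whose loss in mice shifts vertebral identity, was at -1.48 ± 0.32 (adjusted p = 0.000204). Phf19 and Phf1, relatives that bring Polycomb complex 2 to chromatin, were at -1.20 ± 0.25 (adjusted p = 0.000305) and 1.28 ± 0.31 (adjusted p = 0.000345). Pcgf5, of a variant Polycomb complex 1, was at -1.14 ± 0.28 (adjusted p = 0.000455). Trithorax genes and H3K27 demethylases, which favour active Hox genes, had 2 higher and 4 lower of 15 tested, with a median of -0.02. The lower share lies near the 24.9% of all genes tested, and the higher share is below the 28.9%. Dot1l, the H3K79 methyltransferase, was at -0.90 ± 0.11 (adjusted p = 0.000376), and Dpy30, a core subunit of the H3K4 methyltransferases, at -0.72 ± 0.09 (adjusted p = 0.000926). The demethylase Kdm6b was at 0.69 ± 0.19 (adjusted p = 0.00214). Kmt2c was at 0.53 ± 0.35 (adjusted p = 0.0213) by its brightest probe, 1 of 4, and did not pass without replicate 3 (0.078). Neither Kdm6b nor Kmt2c passed with median centring (adjusted p of 0.0807 and 0.491).

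Of the regulators that act on Hox genes from outside, more were higher than lower. The retinoic acid genes named with values are the called ones with the smallest p, and other retinoic acid genes listed were not called. Of 20 with a probe 14 were tested, with 7 higher, 1 lower and a median of 0.35, beside 28.9% and 24.9% of all genes tested. The lower one, named here after its value was seen, was Gmnn, which encodes the replication inhibitor geminin, at -1.35 ± 0.45 (adjusted p = 0.000775). The caudal genes Cdx1, Cdx2 and Cdx4, which switch on central Hox genes in the embryo, were detected nowhere, nor was Cyp26a1, which breaks down retinoic acid. Rarg, a retinoic acid receptor, was at 1.38 ± 0.35 (adjusted p = 0.000323), and its partner Rxra at 1.05 ± 0.28 (adjusted p = 0.000634) by 1 of 2 probes. The retinaldehyde dehydrogenases Aldh1a1 and Aldh1a3 were at 1.19 ± 0.27 (adjusted p = 0.000351) and 0.92 ± 0.09 (adjusted p = 0.000322). Aldh1a3 was detected on 3 of 4 arrays in the channel labelled vector.

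Genes next to the clusters were called about as often as other genes, or less. Of 16 tested flanking genes, 4 were higher and 3 lower, beside 28.9% and 24.9% of all genes tested, with a median of 0.04. Calcoco1 and Cbx5, by the Hoxc cluster, were at 1.12 ± 0.25 (adjusted p = 0.000402) and 0.96 ± 0.42 (adjusted p = 0.00267), the second by 1 of 3 probes and not with median centring (adjusted p = 0.145). Atp5g3 and Lnpk, by the Hoxd cluster, were at -0.57 ± 0.10 (adjusted p = 0.00272) and -0.74 ± 0.39 (adjusted p = 0.00677), and median centring cost Lnpk its call (adjusted p = 0.106).

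**Figure D4:**
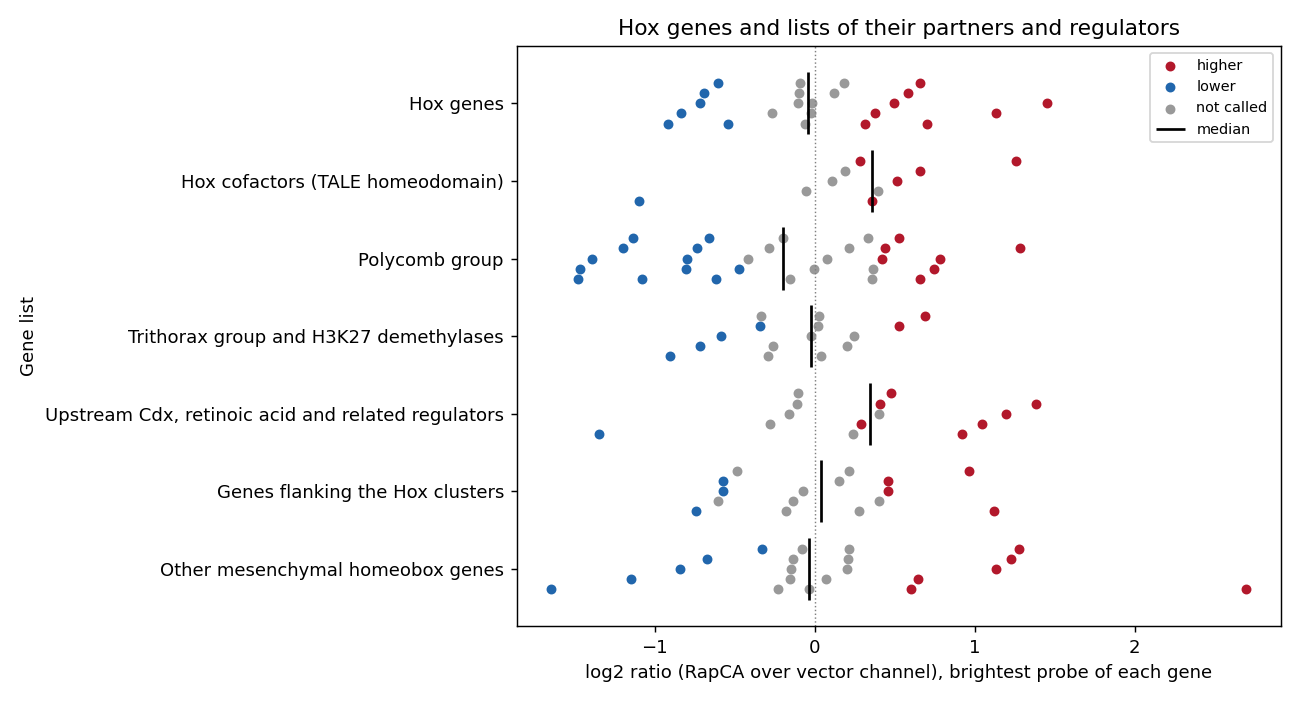
Log2 ratio of the RapCA-labelled over the vector-labelled channel for the brightest probe of each tested gene, in rows for the Hox genes, their partners and regulators, neighbouring genes and other homeobox genes. Points are genes coloured by call, and black bars are the medians of all tested genes of a list. Hox genes lie on both sides of 0, up to 1.45, while the medians of the TALE genes and of the Cdx and retinoic acid list sit at 0.36 and 0.35.

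Marker lists of cell types, the labelled one among them, were also summed in each channel. The summed normalized level of 8 fibroblast markers was 336123 to 400707 in the channel labelled RapCA and 57593 to 88943 in the channel labelled vector, with 6 of 7 tested higher and Lum detected nowhere. That of 8 smooth muscle markers was 309150 to 341411 and 145085 to 195904, with 3 of 6 higher, of which Acta2 turned from 0.54 to -0.24 with median centring. That of 6 pericyte markers was 26318 to 32559 and 9417 to 12530, with 3 of 4 higher, 1 lower and Rgs5 and Abcc9 detected nowhere. Endothelial markers summed to 732 to 862 and 876 to 1273, with 1 higher and 2 lower of 3 tested and Pecam1, Cdh5, Emcn and Tie1 detected nowhere. Adipocyte markers summed to 674 to 862 and 1266 to 1992, with 1 lower of 1 tested and Adipoq, Plin1 and Lep detected nowhere. Glial markers summed to 1434 to 1995 and 507 to 531, with 1 higher of 2 tested. Epithelial markers summed to 457 to 526 and 563 to 640, with 1 lower of 3 tested and Epcam and Cdh1 detected nowhere. Leukocyte markers summed to 655 to 790 and 651 to 700, with 1 higher of 3 tested and Ptprc and Adgre1 detected nowhere. The part of any of these in the Hox differences was not tested.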

How the data were processed

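RNA of both cultures was hybridised in pairs to 4 arrays on 1 slide, per the labels, so no slide effect could be tested. The scanner software was Agilent Feature Extraction, given as 10.7.3.1 in the file headers and as 10.9 in the submitters' processing notes. Intensity values deposited in the scanner files are median pixel brightnesses of each spot and its surround, without normalization, per the file headers. The deposited log10 ratios of Cy5 over Cy3 were background-subtracted and dye-normalized by that software, per the file headers, and served only as alternatives. The deposited series table matched them to within 4.99999e-05 over 40929 probes with 1 spot, with column medians of 0.

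Signals were corrected with normexp (offset 50) and normalized by loess within arrays, with controls at weight 0. Outlier spots (94 to 137 per array) were dropped before a probe's spots were averaged. Ratios were turned to log2 of Cy3 over Cy5. Probes that passed the background flag on every array for at least 1 of the dyes were tested against 0 with limma (lmFit, eBayes), and all p-values were adjusted by Benjamini-Hochberg over 23497 probes and called under 0.05. The ± values are SDs over arrays. Each array holds 1 RNA of each kind, so the channels of an array are paired by construction. Symbols came from a RefSeq table for 64.8% of probes. The file headers name another build than that table, so no probe was placed on it. Every Hox gene is in the counts; of other lists, up to 4 called members with the smallest p are named, plus Rap1a. A few genes that this rule covers are not reported here by name or in the plots, though all tests and counts include them. Members, lists and tests were chosen with earlier results of these data known. Median centring, the scanner software's ratios, other background corrections, filters, variance models, weights, unpaired channels and left-out arrays were tried as alternatives. Scripts were tested on simulated data. Software was R 4.3.3 with limma 3.58.1, data.table (1.17.8) and statmod 1.5.0, and pandas 2.3.3 with matplotlib 3.10.9 under Python 3.11.15.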

Additional observations from a re-analysis of the deposited data

Results flagged for a closer look

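In 2 of 69 items examined, 1 array lay farther from the other 3 than Dixon's limit for 4 values, and chance alone gives about 1 in 20. Of 27 Hox probes 1 was among them, Hoxa10, with replicate 4 at a log2 ratio of 0.84 (gap over range 0.870). Atp5g3, a neighbour of the Hoxd cluster, stood apart on replicate 4 at -0.72 (gap over range 0.866).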

How the results depend on the processing

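The 4 arrays, 1 dye orientation and 1 slide limit every value. Centring each array on its median left 2624 of all probes higher, 3 Hox probes higher, 0 in Hoxa, 2 in Hoxb and 1 in Hoxc, with 1 lower in Hoxb and 1 in Hoxc, turned probe 2 of Hoxb9 (A_52_P98462) to -0.062 and Acta2 to -0.24 (adjusted p = 0.215). It leaves the trend of ratio with intensity in place, and other causes were not tested. Array weights called 8756 of all probes lower. With the channels as separate samples and no replicate block, 8 Hox probes were higher and 7 lower, with 1 higher and 1 lower in Hoxc. For Hoxc, 1 was higher with the series table, with no filter and with the scanner software's ratios. Leaving out 1 array gave 3523 to 7664 of all probes lower, 6 to 11 Hox probes higher, 3 to 6 higher in Hoxb, 1 to 2 higher and 1 to 2 lower in Hoxc. At 2-fold over local background 0 Hoxd probes were detected. The cause of these differences was not tested. Of 419 values of 28 Hox probes, 368 kept their call or lack of one, of which 11 uncalled ones changed sign, while 36 lost a call, 14 gained one and 1 reversed. Of 624 values of 42 other results, 610 kept it, 13 lost a call and 1 reversed.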

Other observations

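Other homeobox genes of mesenchymal tissue were also read. Of 33 with a probe 21 were tested, 6 rose and 5 fell in the RapCA-labelled channel against the other, shares close to the 28.9% and 24.9% of all genes tested, with a median log2 ratio of -0.03 against 0.01 for all probes tested, and 11 were detected nowhere, among them Dlx5, Dlx6 and Pitx1. Meox1, a somite and fibroblast gene, was at 2.69 ± 0.41 (limma adjusted p = 4.25e-05), higher on all 4 arrays and detected in the channel labelled vector on 2 of 4. Zfhx3 was at 1.13 ± 0.24 (adjusted p = 0.000346) and did not pass with median centring (0.0677). Lower were Tshz1, at -1.65 ± 0.48 (adjusted p = 0.000384), and Msx2, a target of bone morphogenetic protein signalling, at -1.15 ± 0.30 (adjusted p = 0.000495). The list was not tested against the Hox genes.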
